A study of Homo sapiens with 12 samples.

Results

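Very long genes were followed through the H3K27me3 table of 4 related human colorectal cancer lines. A member was any interval of that table at least 300000 bp wide, after repeated rows had been dropped, and 882 of 49993 intervals met this width, or 1.76%. The table's intervals run the length of annotated genes, and the members were 300111 to 2304638 bp wide with a median of 435989 bp. They included the postsynaptic scaffold gene DLG2, the reelin adaptor gene DAB1, and the cell adhesion genes SDK1 and PCDH9. A name could be given to 609 members, of which 562 are protein coding and 46 are long non-coding RNA genes, and a strand to 491. The other members are called by their hg19 position.

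Chromatin carrying H3K27me3, H3K4me3 or H3K79me3 was sequenced from each line, and each mark has 1 library in each line, 12 in all. SA was derived from colonies in soft agar and SPH from colonospheres, and both are labelled mesenchymal-like. METS was derived from a lung metastasis of a xenograft and is grouped here as epithelial. DLD1, the parental line, is also grouped as epithelial, and the 3 derivatives share its origin. The sample descriptions of METS and DLD1 do not themselves give that state. All 4 lines were grown in the same medium, and no agent or allele other than the derivation is named in the labels. The question put to each comparison was how the mark differed between a derivative and the parental line, or between the mesenchymal and the epithelial lines.

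H3K27me3 is deposited by the Polycomb complex PRC2 and covers genes that are kept silent, often as broad domains. H3K4me3 sits at active or poised promoters, where stretches rich in CpG dinucleotides attract the enzymes that lay it down. H3K79me3 is made by DOT1L behind elongating RNA polymerase and marks the bodies of transcribed genes, most strongly near their 5′ ends. Many of the longest human genes encode synaptic, adhesion and channel proteins, and several span common fragile sites, where transcription and late replication of one long unit meet.

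Column totals over the part of the H3K27me3 table held here were 18892326 counts in SA, 20410151 in SPH, 20286050 in METS and 15605814 in DLD1. H3K4me3 totals lay between 6722508 and 7753937 counts, and H3K79me3 totals between 6165169 and 7521451. Every level below is a count per 1000000 counts of its column (CPM) divided by the width in kb, and every fold is a ratio of CPM with an exact 95% Clopper-Pearson interval in brackets. These intervals cover counting error only, since PCR copies were not marked. No input library was analysed here, so H3K27me3 and DNA copy number cannot be told apart. No annotation on hg19 was at hand to check the lines against epithelial or mesenchymal marker genes.

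The promoters of very long genes were mostly CpG-rich, and a CpG-rich promoter could be with or without H3K4me3. Among 405 members whose RefSeq start site lay within 1 kb of the gene's 5′ end, 81.0% had 10 or more CG dinucleotides in the 250 bases before the start, against 51.9% of all 27305 RefSeq promoters. CG was searched as the letters CG, which read the same on both strands. H3K4me3 lay within 5 kb of the 5′ end in 60.7% of the 328 members with 10 or more CG and in 9.09% of the 33 members with 0 to 2. The 5 promoters below, from RefSeq on GRCh38.p14, show the range: GMDS and DAB1 had H3K4me3 at their start in all 4 lines, and KIRREL3, GPC5 and PCDH9 had none within 5 kb. Each is 250 bases long, read 5′ to 3′ on the gene's strand up to the base before the start, with every CG in capitals.
GMDS, chr6:2245606-2245855, minus strand, 35 CG: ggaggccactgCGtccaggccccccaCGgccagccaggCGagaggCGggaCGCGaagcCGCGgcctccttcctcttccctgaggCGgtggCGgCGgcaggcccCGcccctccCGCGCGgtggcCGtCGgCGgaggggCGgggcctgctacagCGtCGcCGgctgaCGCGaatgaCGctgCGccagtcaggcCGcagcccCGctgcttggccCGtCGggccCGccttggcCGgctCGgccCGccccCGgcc
DAB1, chr1:58546727-58546976, minus strand, 23 CG: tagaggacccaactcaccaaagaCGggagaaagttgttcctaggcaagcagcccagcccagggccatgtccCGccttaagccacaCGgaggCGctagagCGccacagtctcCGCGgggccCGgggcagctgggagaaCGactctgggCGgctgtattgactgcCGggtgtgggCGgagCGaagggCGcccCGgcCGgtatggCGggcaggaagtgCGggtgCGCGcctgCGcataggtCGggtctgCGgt
KIRREL3, chr11:127003395-127003644, minus strand, 23 CG: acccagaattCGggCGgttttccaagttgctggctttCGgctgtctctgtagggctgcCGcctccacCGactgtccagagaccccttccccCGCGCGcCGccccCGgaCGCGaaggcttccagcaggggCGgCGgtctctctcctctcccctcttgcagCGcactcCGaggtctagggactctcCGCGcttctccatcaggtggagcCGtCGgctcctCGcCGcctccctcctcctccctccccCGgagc
GPC5, chr13:91398371-91398620, plus strand, 25 CG: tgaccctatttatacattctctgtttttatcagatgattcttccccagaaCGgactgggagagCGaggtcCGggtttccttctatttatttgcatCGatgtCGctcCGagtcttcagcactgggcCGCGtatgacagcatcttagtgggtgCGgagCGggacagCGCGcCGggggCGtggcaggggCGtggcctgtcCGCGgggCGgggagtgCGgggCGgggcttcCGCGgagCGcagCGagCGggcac
PCDH9, chr13:67230337-67230586, minus strand, 20 CG: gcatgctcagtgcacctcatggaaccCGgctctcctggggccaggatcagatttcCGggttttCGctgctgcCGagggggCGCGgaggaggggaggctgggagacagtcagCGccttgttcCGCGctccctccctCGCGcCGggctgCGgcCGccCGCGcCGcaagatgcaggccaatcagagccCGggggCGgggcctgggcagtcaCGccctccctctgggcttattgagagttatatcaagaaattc
H3K4me3 regions within 5 kb of the GMDS 5′ end summed to 53.5 CPM in SA, 46.8 in SPH, 59.0 in METS and 55.8 in DLD1. Those at DAB1 summed to 58.3, 62.5, 62.7 and 57.6 CPM in the same lines. The GMDS body had the lowest mean H3K27me3 over the 4 lines of all members, although chr7:76139745-76648340 was lower in SPH. The DAB1 body lay above the upper quartile of members in every line. Members with a strand and H3K4me3 within 5 kb of the 5′ end numbered 248. Their median H3K27me3 was 0.236 CPM per kb in SA, 0.277 in SPH, 0.278 in METS and 0.288 in DLD1. The 243 members with a strand but no such region had 0.862, 0.872, 0.807 and 0.808 CPM per kb. A marked start thus went with a lower level, with DAB1 an exception.

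Very long genes carried more H3K27me3 per kb than shorter ones in every line. Their median was 0.495 CPM per kb in SA, 0.502 in SPH, 0.521 in METS and 0.548 in DLD1, against 0.262, 0.299, 0.304 and 0.312 for the 3133 intervals of 100 to under 300 kb. Medians for the 14076 intervals of 10 to under 100 kb were lower again, at 0.235, 0.248, 0.262 and 0.273 CPM per kb. The relation to width was not steady, since the 13283 intervals of 1 to under 10 kb had medians of 0.317, 0.316, 0.340 and 0.359 CPM per kb and the 18619 under 1 kb had 0.414, 0.441, 0.442 and 0.454. Since many intervals overlap, the sums were also taken over 30840 intervals of which none overlaps another. There 855 members made up 34.6% of the covered length and held 41.6% of the counts in SA, 43.3% in SPH, 41.1% in METS and 39.3% in DLD1. Pooled over that length, members had 0.790, 0.823, 0.778 and 0.743 CPM per kb, and other intervals had 0.586, 0.570, 0.588 and 0.607 CPM per kb. The spread among members was wide, with a lowest value of 0.0967 and a highest of 4.98 CPM per kb in SA.

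**Figure D1:**
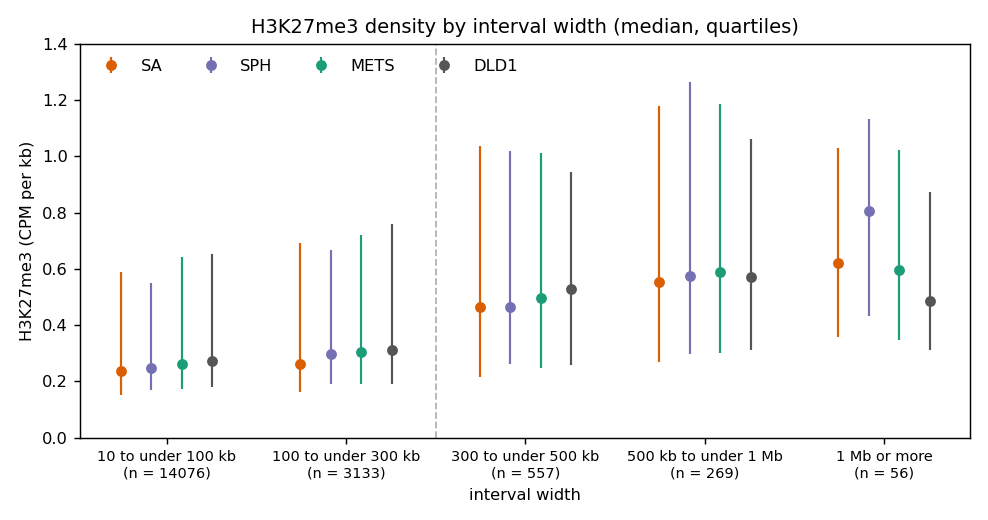
H3K27me3 in CPM per kb (vertical axis) by interval width (horizontal axis), with a point for the median and a bar for the quartiles over intervals in SA, SPH, METS and DLD1. Intervals right of the dashed line are the very long genes, and the 56 of 1 Mb or more have a median of 0.806 CPM per kb in SPH and 0.486 in DLD1.

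The highest levels were over HYDIN, RPH3A, PLXNA4, KIRREL3 and TMEM132B. RPH3A, the gene of the synaptic vesicle protein rabphilin, had 3.96 CPM per kb in SA, 4.04 in SPH, 3.45 in METS and 3.61 in DLD1. PLXNA4, a semaphorin coreceptor gene, had 3.45, 3.32, 3.04 and 3.15 CPM per kb, and KIRREL3, an immunoglobulin adhesion gene, had 3.4, 3.16, 3.1 and 3.16. TMEM132B, a transmembrane protein gene, followed with 3.18, 3.03, 3.01 and 3.01 CPM per kb. These 4 genes were nearly level across lines, with folds to DLD1 between 0.953 and 1.12. HYDIN, a gene of motile cilia, was higher still with 4.98, 4.86, 4.13 and 4.19 CPM per kb, but it has a near-identical copy on another chromosome and the handling of reads that match both is not given in the sources used here.

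The lowest means over the 4 lines were at GMDS, FARS2, LINC02241, ASCC3 and STAG1. GMDS, an enzyme gene of GDP-fucose synthesis, had 0.0967 CPM per kb in SA, 0.108 in SPH, 0.113 in METS and 0.114 in DLD1. FARS2, a mitochondrial tRNA synthetase gene, had 0.114, 0.126, 0.132 and 0.133 CPM per kb, and STAG1, a cohesin subunit gene, had 0.125, 0.147, 0.136 and 0.146. The helicase gene ASCC3 had 0.110, 0.147, 0.134 and 0.135 CPM per kb and the non-coding RNA gene LINC02241 had 0.109, 0.153, 0.138 and 0.119. Of these genes, GMDS held 29 H3K79me3 regions, ASCC3 held 19, STAG1 held 131 and FARS2 held 2, while LINC02241 held none and had no H3K4me3 region. Low H3K27me3 thus occurred both with and without the marks of transcription.

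Of the 4 genes named at the outset, 3 were high and level and 1 was not. SDK1 had 2.53 CPM per kb in SA, 2.82 in SPH, 2.46 in METS and 2.34 in DLD1, and DAB1 had 1.72, 1.81, 1.76 and 1.47. DLG2, which is 2172912 bp wide, had 1.4, 1.33, 1.38 and 1.27 CPM per kb. PCDH9 had 0.247, 0.340, 0.636 and 0.219 CPM per kb, so that METS stood above the other lines. The edgeR quasi-likelihood test of mesenchymal against epithelial lines called none of these 4 genes, with Benjamini-Hochberg adjusted p-values of 0.859 for DAB1, 0.823 for SDK1, 0.952 for DLG2 and 0.360 for PCDH9. Of the 4, 1 had an unadjusted p under 0.05 and DESeq2's Wald test called 0.

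Very long genes with many H3K79me3 regions had little H3K27me3. The table of H3K79me3 had 11497 regions with their midpoint inside a member, spread over 548 members, and 334 members held none. Members without an H3K79me3 region had a median H3K27me3 of 0.676 CPM per kb in SA, 0.70 in SPH, 0.729 in METS and 0.732 in DLD1. The 146 members with 20 or more such regions had medians of 0.179, 0.208, 0.207 and 0.214 CPM per kb, so the median without the mark was over 3 times as high in every line. Those with 1 to 4 regions numbered 310 and kept high medians between 0.606 and 0.681 CPM per kb. Across the 882 members, Spearman's rank correlation between H3K79me3 regions per length and H3K27me3 density was -0.51 in SA, -0.52 in SPH, -0.49 in METS and -0.47 in DLD1. These are descriptions over members, which share libraries and in part sequence.

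**Figure D2:**
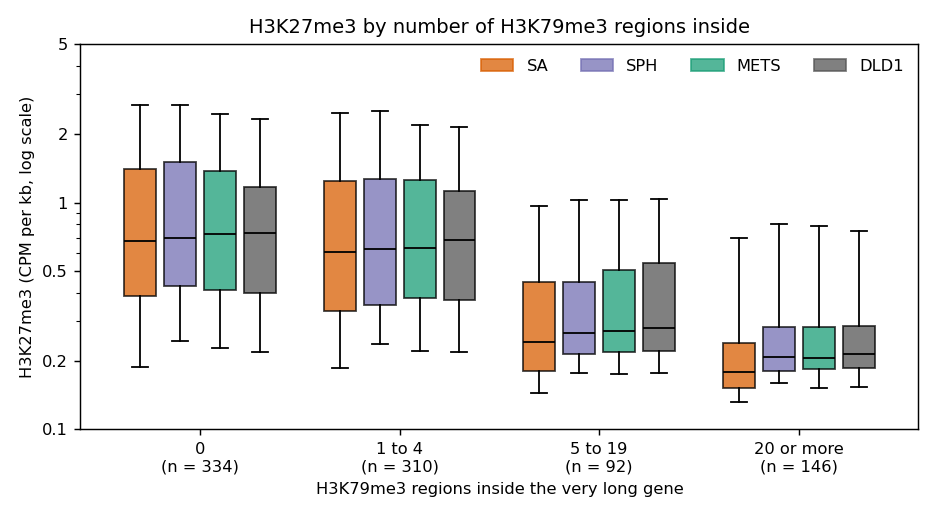
H3K27me3 in CPM per kb on a log scale (vertical axis) for very long genes grouped by how many H3K79me3 regions they hold (horizontal axis), in SA, SPH, METS and DLD1. Boxes span the quartiles with the median as a line, and whiskers run from the 5th to the 95th percentile. The medians are near 0.7 CPM per kb with no region and near 0.2 with 20 or more.

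The members with the most H3K79me3 regions per length had low H3K27me3. MGAT5, which codes for an N-glycan branching enzyme, held 240 H3K79me3 regions, and its H3K27me3 was 0.146 CPM per kb in SA, 0.177 in SPH, 0.163 in METS and 0.196 in DLD1. The unnamed interval chr17:70319264-70636611 held 204 and had 0.224, 0.269, 0.227 and 0.260 CPM per kb, the highest of these 5. The adaptor gene APBB2 held 216 and had 0.163, 0.177, 0.189 and 0.190 CPM per kb. PVT1, a non-coding RNA gene, held 191 and had 0.168, 0.183, 0.189 and 0.20 CPM per kb. ARHGAP32, a GTPase activating protein gene, held 161 and also stayed below 0.19 CPM per kb in every line. Summed H3K79me3 was not level across lines in these genes: it was 1361 CPM in METS and 685 CPM in DLD1 over MGAT5, and 1039 CPM in METS and 1841 CPM in DLD1 over ARHGAP32.

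The 5 members with the most H3K4me3 had no name and ranged from low to moderate H3K27me3. The interval chr3:183852826-184402546 held 33 H3K4me3 and 83 H3K79me3 regions and had 0.695 CPM per kb of H3K27me3 in SA, 0.577 in SPH, 0.742 in METS and 0.726 in DLD1. The interval chr9:37588410-38068684 held 19 and 194 such regions and had 0.565, 0.480, 0.711 and 0.739 CPM per kb. As means of the 4 lines, 0.685 and 0.624 CPM per kb, both lay above 0.271, the upper quartile of the members with 20 or more H3K79me3 regions. The lowest of the 5 was chr7:32535038-33078516, which held 11 H3K4me3 and 86 H3K79me3 regions and had 0.193 CPM per kb of H3K27me3 in SA, 0.211 in SPH, 0.259 in METS and 0.250 in DLD1. The interval chr2:43393800-43823185 lay between 0.262 and 0.316 CPM per kb, and chr2:53759810-54087170 between 0.450 and 0.663.

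H3K4me3 was sparser and also went with lower H3K27me3. It had 1931 regions inside members, and 219 members held none. The 219 had a median H3K27me3 of 0.892 CPM per kb in SA, 0.860 in SPH, 0.844 in METS and 0.737 in DLD1. The 663 members with at least 1 region had medians of 0.397, 0.426, 0.450 and 0.478 CPM per kb. The 147 members with neither mark had 0.886, 0.872, 0.847 and 0.734 CPM per kb, close to those without H3K4me3 alone. Spearman's rank correlation between H3K4me3 regions per length and H3K27me3 density was -0.48 in SA, -0.51 in SPH, -0.46 in METS and -0.39 in DLD1, again over the 882 members.

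Both active marks were concentrated at the start of the genes. In the 491 members with a strand, the first 50 kb made up 9.14% of the length but held 37.2% of the H3K4me3 regions and 37.6% of the H3K79me3 regions. H3K4me3 fell off at once, with 0.644 regions per gene in the first 10 kb and 0.0387 in the next. H3K79me3 declined slowly, with 1.78 regions per gene in the first 10 kb, 1.12 in the next and 0.458 between 100 and 110 kb.

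**Figure D3:**
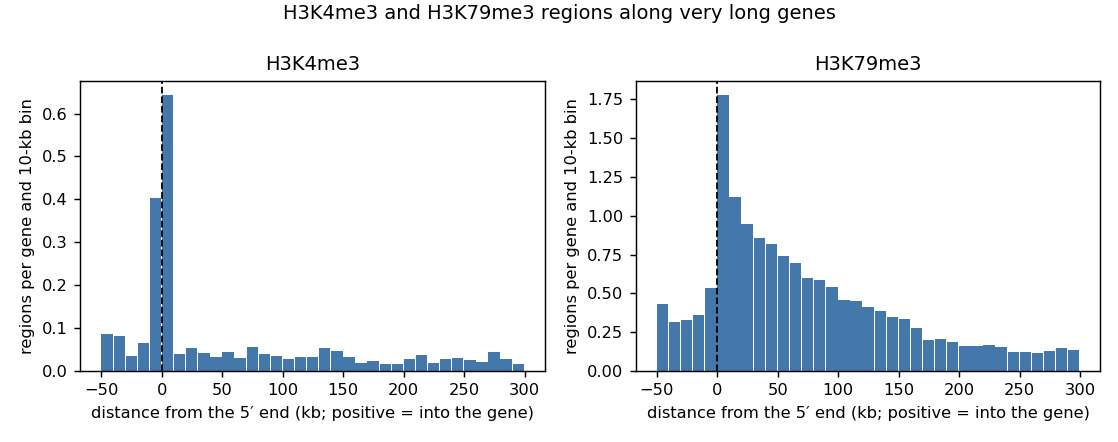
Regions of H3K4me3 (left) and H3K79me3 (right) per gene in 10-kb bins (vertical axes) against the distance from the 5′ end in kb (horizontal axes, positive into the gene), for 491 very long genes with a known strand. The dashed line is the 5′ end; H3K4me3 stands in the bins beside it and H3K79me3 declines over the first 200 kb.

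Each derivative was then compared with DLD1, and most very long genes stayed within 1.5-fold of it. With 0.5 CPM added to both values, 32 members of SA reached 1.5-fold above DLD1 and 59 reached 1.5-fold below it, which is 3.63% and 6.69% of them against 2.73% and 5.76% of all intervals. In SPH 84 members stood higher and 72 lower, which is 9.52% and 8.16% of members against 3.71% and 8.58% of all intervals. In METS, 44 were higher and 54 lower, which is 4.99% and 6.12% against 3.54% and 5.24%. At 2-fold, 6 members were higher and 4 lower in SA (0.318% and 0.472% of all intervals), 19 higher and 12 lower in SPH (0.684% and 1.39%), and 9 higher and 13 lower in METS (0.488% and 0.738%). The share above DLD1 in SPH was thus the one furthest from its background, and 668 members passed the threshold in no derivative. The 3 comparisons share the single DLD1 library, and none has a replicate, so no p-value belongs to them.

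The direction of these counts depended on the scaling. The median log2 ratio of the members to DLD1 was -0.13 in SA, 0.04 in SPH and 0.02 in METS with library totals. TMM factors raise every log2 ratio by 0.14 in SA, 0.12 in SPH and 0.04 in METS, so that the median of SA turns to 0.01. With them 66 members were higher and 31 lower in SA, 140 higher and 47 lower in SPH, and 49 higher and 49 lower in METS. The shares of all intervals given above belong to library totals and were not counted with TMM factors. These counts therefore cannot show whether members differ from other intervals.

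The longest genes leaned most towards gains. Of the 56 members of 1 Mb or more, 13 were higher in SPH and 0 lower, 3 were higher in SA and 1 lower, and 5 were higher in METS and 2 lower. Their median log2 ratio to DLD1 was 0.20 in SA, 0.37 in SPH and 0.16 in METS, while the 557 members under 500 kb had -0.19, 0.01 and 0.01. The 13 higher in SPH include CSMD1, coding for a complement-regulating membrane protein, with 0.334 CPM per kb in SA, 0.602 in SPH, 0.350 in METS and 0.295 in DLD1. They also include SGCZ, a sarcoglycan gene, with 0.240, 0.428, 0.292 and 0.249 CPM per kb. SPAG16, coding for a sperm axoneme protein, had 0.373, 0.651, 0.334 and 0.315 CPM per kb. In these 3 genes SPH alone stood apart from DLD1 by 1.5-fold. They were singled out after their values were seen.

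**Figure D4:**
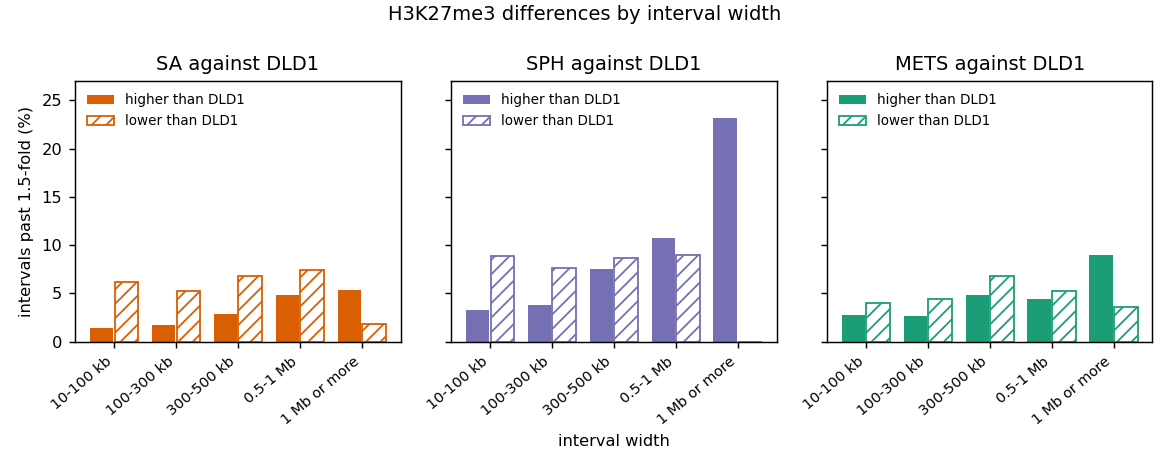
Share of intervals at least 1.5-fold higher (filled bars) or lower (hatched bars) than DLD1 in H3K27me3, in percent (vertical axis), by interval width (horizontal axis), for SA, SPH and METS. In SPH the higher share is 3.77% at 100 to 300 kb and 23.2% at 1 Mb or more, where no interval is lower.

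Some members differed from DLD1 the same way in all 3 derivatives. The 1.5-fold threshold was passed upward in all 3 by 11 members and downward by 24, which is 1.25% and 2.72% of members against 0.608% and 1.21% of all intervals. The 3 ratios share the DLD1 library, so a high or low count in that library alone would also place a member here. ADGRB3, an adhesion G protein-coupled receptor gene of synapses, had 1.05 CPM per kb in SA, 1.24 in SPH, 0.846 in METS and 0.444 in DLD1, which is 2.37-fold (2.30 to 2.45), 2.80-fold (2.71 to 2.89) and 1.91-fold (1.85 to 1.97) of DLD1. NOL4, a nucleolar protein gene, had 0.934, 0.830, 0.795 and 0.414 CPM per kb. Neither held an H3K4me3 region.

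The members lower in all 3 derivatives included genes with H3K4me3 inside. PCSK5, a proprotein convertase gene, had 0.496 CPM per kb in SA, 0.424 in SPH, 0.504 in METS and 0.909 in DLD1, and its H3K4me3 regions summed to 90.9, 94.9, 99.96 and 58.6 CPM. SSBP2, which codes for a single-stranded DNA binding protein, had 0.614, 0.476, 0.441 and 0.970 CPM per kb of H3K27me3, with 86.4, 84.2, 95.03 and 89.1 CPM of H3K4me3. ADAMTS6, a secreted metalloprotease gene, had 0.469, 0.483, 0.337 and 0.812 CPM per kb. The transcription factor gene MECOM had 0.296, 0.312, 0.366 and 0.558 CPM per kb, and SOX6 had 0.298, 0.325, 0.342 and 0.546. That DLD1 was the highest line in these 5 genes follows from how they were chosen. SSBP2, MECOM and SOX6 were chosen after their values were seen.

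The highest ratios of METS to DLD1 were led by PCDH9, which was 2.91-fold of DLD1 (2.79 to 3.02) in METS, against 1.13-fold (1.08 to 1.18) in SA and 1.55-fold (1.49 to 1.62) in SPH. EPHA6, an ephrin receptor gene, had 0.824 CPM per kb in SA, 0.799 in SPH, 1.45 in METS and 0.645 in DLD1. SHISA6, an AMPA receptor accessory gene, had 0.851, 1.36, 1.76 and 0.702 CPM per kb, so that SPH was high as well. The unnamed interval chr14:30045687-30661104 had 0.903, 0.464, 1.52 and 0.559 CPM per kb. SLC2A13, a myo-inositol transporter gene, had 0.413, 0.494, 0.814 and 0.313 CPM per kb of H3K27me3, and its single H3K4me3 region, near the 5′ end, had 4.90, 3.36, 23.7 and 9.37 CPM. Both marks were thus highest in METS over SLC2A13.

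The lowest values in METS relative to DLD1 were at ADAMTS6 (above), at UNC5C and at 3 further intervals. UNC5C, a netrin receptor gene, had 0.520 CPM per kb in SA, 0.370 in SPH, 0.262 in METS and 0.598 in DLD1. The interval chr6:114290865-114792869 had 0.654, 0.517, 0.302 and 0.685 CPM per kb and held 22 H3K79me3 regions. CALCRL-AS1, an antisense RNA gene, had 0.317, 0.272, 0.250 and 0.562 CPM per kb, and it cannot be told apart from genes that overlap it. The interval chr5:128836054-129241610 had 0.271, 0.253, 0.247 and 0.562 CPM per kb, and all 3 derivatives stood below DLD1.

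The mesenchymal lines were set against the epithelial lines with edgeR, each line standing for 1 replicate. The glypican genes GPC6 and GPC5 led the members that rose, and the kinase gene MAPK10 led those that fell. At a Benjamini-Hochberg adjusted p of 0.05 over the whole table, edgeR's quasi-likelihood test called 21 members higher and 10 lower in the mesenchymal lines, which is 2.38% and 1.13% of members against 0.343% and 0.294% of all intervals tested. By size alone the order was the other way: both mesenchymal lines were over 1.5-fold above both epithelial lines in 8 members, or 0.907%, against 2.70% of all intervals, and as far below them in 5 members, or 0.567%, against 3.31%. Nothing was added to the CPM in that count, and short intervals with few counts are in it. Because MDGA2 and a second interval over it count the same reads, the 31 calls stand for 30 separate places. These p-values measure only the spread between 4 lines of 1 origin. The same fit called 24 higher and 19 lower of the 3133 intervals of 100 to under 300 kb, the nearest in width. Of 17206 tested intervals under 1 kb it called 20 higher and 6 lower, so the share of all intervals is drawn largely from short ones.

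GPC6 and GPC5 are neighbouring genes of glypicans, cell surface proteoglycans that carry heparan sulfate and bind growth factors. Over GPC6, H3K27me3 was 0.995 CPM per kb in SA and 1.56 in SPH, against 0.252 in METS and 0.435 in DLD1. Over GPC5 it was 0.909 and 1.15 CPM per kb in the mesenchymal lines, against 0.204 and 0.452 in METS and DLD1. Both mesenchymal lines were high and METS was lowest in both genes. The log2 difference between the states was 1.89 for GPC6 (edgeR, adjusted p = 8.02e-11) and 1.65 for GPC5 (edgeR, adjusted p = 1.10e-08). Little H3K4me3 lay inside either gene, with sums of 0, 0.140, 1.92 and 0.149 CPM over GPC6 and 2.97, 3.22, 6.16 and 8.63 CPM over GPC5 in SA, SPH, METS and DLD1. The GPC5 call was lost with DESeq2's Wald test (adjusted p = 0.131), and GPC6 kept its call there (adjusted p = 2.31e-09). The GPC5 promoter printed above had no H3K4me3 within 5 kb. Shorter intervals with 100 or more counts inside these genes, 3 in GPC6 and 2 in GPC5, were also above DLD1 in SA and SPH and below it in METS. They count reads that are already in the values of GPC6 and GPC5, so they are not separate support.

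FOXP1, a forkhead transcription factor gene, showed the same order with active marks present. Its H3K27me3 was 0.694 CPM per kb in SA and 0.830 in SPH, against 0.253 in METS and 0.416 in DLD1. Its 5 H3K4me3 regions summed to 50.3 and 37.9 CPM in SA and SPH, against 82.3 and 59.4 CPM in METS and DLD1. Its 8 H3K79me3 regions summed to 6.05 and 2.43 CPM, against 17.3 and 4.39 CPM. METS thus had the least H3K27me3 and the most of both active marks. The log2 difference in H3K27me3 was 1.19 (edgeR, adjusted p = 2.14e-05).

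MDGA2, coding for a membrane-anchored adhesion protein of synapses, had 0.538 CPM per kb in SA and 0.601 in SPH, against 0.253 in METS and 0.252 in DLD1. PPFIA2, which codes for the scaffold liprin-alpha-2, had 0.862 and 1.29 CPM per kb in the mesenchymal lines, against 0.481 and 0.447. In both genes METS and DLD1 lay close together and the mesenchymal pair stood above them. The log2 difference was 1.17 for MDGA2 and 1.22 for PPFIA2, and both had an edgeR adjusted p of 5.62e-06.

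The members that fell in the mesenchymal lines were led by MAPK10, coding for the neuronal JNK kinase JNK3. It had 0.348 CPM per kb in SA and 0.332 in SPH, against 0.731 in METS and 0.682 in DLD1, with a log2 difference of -1.06 (edgeR, adjusted p = 4.65e-05). CADPS, a gene of dense-core vesicle release, had 0.177 and 0.261 CPM per kb in the mesenchymal lines, against 0.664 in METS and 0.343 in DLD1, with a log2 difference of -1.20 (edgeR, adjusted p = 0.000174). The CADPS call was lost without METS (edgeR, adjusted p = 0.148) and with DESeq2's Wald test (adjusted p = 0.712). DYNC1I1, which codes for a dynein intermediate chain, had 0.829 and 0.651 CPM per kb, against 1.61 and 1.23. TRPM3, a cation channel gene, had 0.504 and 0.560 CPM per kb, against 0.845 and 1.06. DESeq2's Wald test gave TRPM3 an adjusted p of 0.0504 and DYNC1I1 one of 0.0434. In all 4 genes both mesenchymal lines lay below both epithelial lines. CADPS had 126 and 105 CPM of H3K4me3 inside in SA and SPH, against 78.3 in METS and 117 in DLD1, so that METS was lowest in H3K4me3 and highest in H3K27me3. At MAPK10 most H3K4me3 near the 5′ end lay outside the interval: regions within 5 kb summed to 70.4, 69.8, 70.5 and 67.4 CPM in SA, SPH, METS and DLD1, and those inside to 7.74, 12.7, 11.1 and 6.25 CPM. The interval chr7:76139745-76648340, with 79 H3K79me3 regions, was the fifth by p among those that fell, with 0.134 and 0.103 CPM per kb against 0.189 and 0.287. Its call was lost without DLD1 (edgeR, adjusted p = 0.210) and with DESeq2's Wald test (adjusted p = 0.0534).

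**Figure D5:**
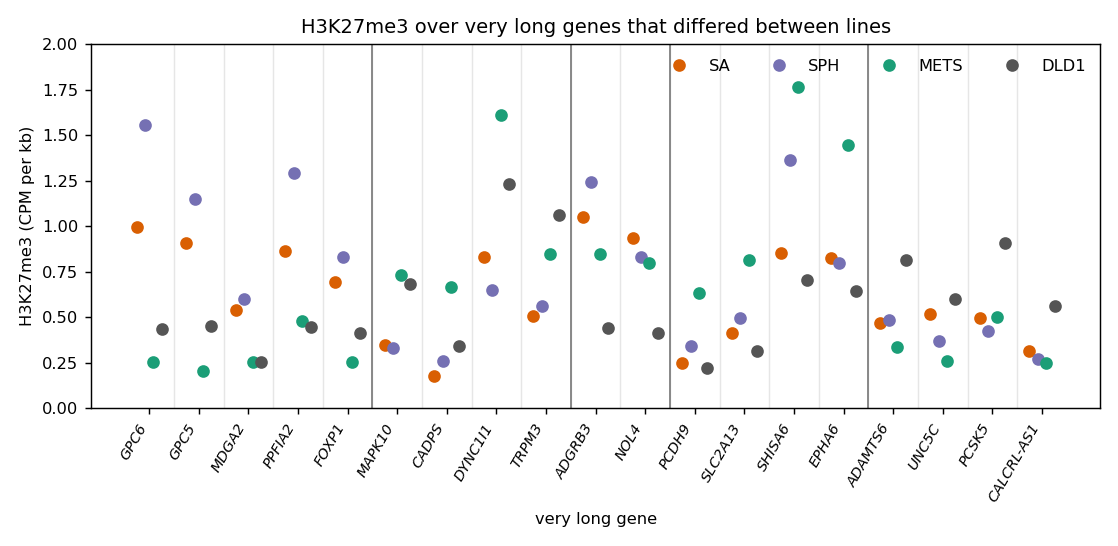
H3K27me3 in CPM per kb (vertical axis) over 19 named very long genes (horizontal axis), with 1 point per library for SA, SPH, METS and DLD1. From left, the blocks hold genes that rose and genes that fell in the mesenchymal lines by edgeR, genes higher in all 3 derivatives, genes highest in METS, and genes with low ratios to DLD1. GPC6 reaches 1.56 CPM per kb in SPH and 0.252 in METS.

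How far these calls held depended on the fit. DESeq2's Wald test, run on all intervals with a count, called 14 higher and 2 lower. A filter at the median level leaves all 882 members in but drops the weaker intervals, and with it edgeR gave 0 calls. In that filtered fit 159 members had an edgeR unadjusted p under 0.05, against 208 in the unfiltered fit. DESeq2 was not run with that filter. Of the 31 calls, 7 were also made in every alternative other than that filter. These 7 include both MDGA2 and the second interval over it, which count the same reads. Without SPH, edgeR called 9 higher and 9 lower, and without METS 42 higher and 41 lower.

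Gene groups were described by their members in the table. Their counts past 1.5-fold of DLD1 are to be read beside the shares of all intervals given above for each derivative. The group of widely expressed genes had 23 members with a median of 0.185 CPM per kb in SA, 0.218 in SPH, 0.216 in METS and 0.224 in DLD1, and 12 of them held 20 or more H3K79me3 regions. Not all genes listed were low, since the means of the 4 lines in this group ran from 0.139 to 2.58 CPM per kb, the highest at ATP8A2. Whether each listed gene is widely expressed was not tested. MAPK10, although known mainly from neurons, was listed in this group and was its only member past 1.5-fold in any derivative and the only one called by edgeR. The receptor phosphatase gene PTPRK was in turn the lowest of 5 in its group, with 0.126, 0.139, 0.150 and 0.150 CPM per kb and 141 H3K79me3 regions. PTPRD, of the same group, rose in the mesenchymal lines with a log2 difference of 0.68 (edgeR, adjusted p = 0.0101), a call lost without SPH (edgeR, adjusted p = 0.696) and with DESeq2's Wald test (adjusted p = 0.0557). In that group 0 members passed 1.5-fold either way in SA, 2 were higher in SPH and 1 in METS.

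Channel, receptor and scaffold groups lay above the medians of all members in every line. The 24 ion channel genes had medians of 1.12 CPM per kb in SA, 1.09 in SPH, 1.15 in METS and 1.16 in DLD1, and TRPM3 was the only one called by edgeR. Of these 24, 0 were higher and 1 lower in SA, 1 higher and 1 lower in SPH, and 0 higher and 1 lower in METS. The 11 glutamate receptor genes had 0.991, 0.871, 0.911 and 0.821 CPM per kb, with 3 higher in SPH and 0 past the threshold in SA or METS. The 16 scaffold genes of junctions and synapses, DLG2 among them, had 0.876, 0.907, 1.08 and 0.850 CPM per kb, and 0 passed 1.5-fold in any derivative. The 6 phosphodiesterase genes had 0.999, 0.908, 0.908 and 1.08 CPM per kb, with PDE11A lower in all 3 derivatives. In SPH 2 of the 6 were lower, and 0 were higher in any derivative.

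Adhesion and guidance genes were described in the same way. The 25 synaptic and neuronal adhesion genes had medians of 0.633 CPM per kb in SA, 0.867 in SPH, 0.677 in METS and 0.715 in DLD1. Of these 25, 0 were higher and 2 lower in SA, 5 higher and 1 lower in SPH, and 2 higher and 1 lower in METS. The contactin gene CNTN4, an example of the 5 higher in SPH, had 0.624, 0.872, 0.603 and 0.477 CPM per kb. The 8 cadherin and protocadherin genes had 0.486, 0.406, 0.575 and 0.322 CPM per kb, with PCDH9 and PCDH15 higher in METS. In SA 1 was higher, in SPH 1 was higher, and 0 were lower in any derivative. Of the 15 axon guidance genes, with medians of 0.380, 0.476, 0.430 and 0.373 CPM per kb, EPHA6, SEMA5A and ROBO1 were higher in METS and UNC5C was lower. In SPH 1 was higher and 1 lower, and in SA 0 passed 1.5-fold. SEMA5A, a semaphorin gene, had 0.224, 0.272, 0.527 and 0.246 CPM per kb. edgeR called 0 of the 48 genes of these 3 groups at an adjusted p of 0.05, with 14 at an unadjusted p under 0.05, and DESeq2's Wald test called 0. Of all members, edgeR called 2.38% higher and 1.13% lower, and 23.6% had an unadjusted p under 0.05. Of all intervals it called 0.343% higher and 0.294% lower, so 48 genes would hold few calls at these shares.

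The 23 fragile site genes differed widely in level, with means of the 4 lines between 0.177 and 2.54 CPM per kb. Their medians were 0.663 CPM per kb in SA, 0.847 in SPH, 0.698 in METS and 0.605 in DLD1. Past 1.5-fold of DLD1, 1 was higher and 2 lower in SA, 0 higher and 1 lower in SPH, and 1 higher and 0 lower in METS. edgeR called 0 of them, with 5 at an unadjusted p under 0.05, and DESeq2's Wald test called 0. Of all members, edgeR called 2.38% higher and 1.13% lower, and 23.6% had an unadjusted p under 0.05. At these shares 23 genes would hold few calls. FHIT, at the most studied fragile site, had 0.364, 0.420, 0.312 and 0.424 CPM per kb, and the oxidoreductase gene WWOX had 0.444, 0.464, 0.597 and 0.561. LRP1B, a lipoprotein receptor gene, had 0.892, 0.847, 0.659 and 0.587 CPM per kb. IMMP2L, coding for a mitochondrial peptidase, stayed between 0.149 and 0.194 CPM per kb. FHIT and IMMP2L held few H3K79me3 regions, 2 and 1, and PTPRG held 56 with 0.222, 0.276, 0.227 and 0.276 CPM per kb of H3K27me3.

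Among the 5 heparan sulfate genes, GPC5 and GPC6 were the only ones past 1.5-fold, and the sulfotransferase gene HS6ST3, also on chromosome 13, had 1.72 CPM per kb in SA, 1.75 in SPH, 1.53 in METS and 1.23 in DLD1. The medians of the 5 were 0.995, 1.15, 0.260 and 0.452 CPM per kb. The 21 transcription factor genes had medians of 0.694, 0.816, 0.725 and 0.884 CPM per kb, and FOXP1 was the only one called by edgeR. Of these 21, 1 was higher and 3 lower in SA, 3 higher and 3 lower in SPH, and 0 higher and 5 lower in METS. Of all intervals, 5.24% were lower in METS. The factor gene EBF1 was level at 2.90, 2.75, 2.60 and 2.63 CPM per kb, whereas TOX had 0.618, 0.493, 0.318 and 0.704.

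Few H3K4me3 regions inside very long genes were called between the states, at a share near that of the whole table. Of 1897 regions tested, edgeR called 0 higher and 8 lower at an adjusted p of 0.05, or 0.422% lower. Of all H3K4me3 regions, 0.00561% were called higher and 0.292% lower. The region chr16:12169647-12170072 in SNX29, a sorting nexin gene, had 0.129 CPM in SA and 0.280 in SPH, against 7.53 in METS and 3.27 in DLD1. The region chr12:40499405-40499896 at the 5′ end of SLC2A13 was among the 8. So was chr2:230578882-230579304 in DNER, a Notch ligand gene, with 11.2 and 2.80 CPM, against 26.97 and 26.2. In each of these the mesenchymal libraries lay below both epithelial ones. The calls were not stable: with TMM factors 1 region was lower, DESeq2's Wald test called 2 lower, and a filter at the median left 0. Without SA, edgeR called 68 higher and 151 lower.

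For H3K79me3 inside members, edgeR called 0 of 11453 regions, and 0 in the whole table (0% of regions), with 531 at an unadjusted p under 0.05. DESeq2's Wald test also called 0.

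Active marks were also summed over each member. Of 433 members with 10 CPM or more of H3K4me3 inside, SA had 1 that reached 1.5-fold above DLD1 and 16 below it, against 0.189% and 1.43% of 12718 intervals. In SPH 18 were higher and 29 lower (background 3.48% and 3.93%), and in METS 8 were higher and 6 lower (0.456% and 1.18%). Of 209 members with 10 CPM or more of H3K79me3, 3 were higher and 4 lower in SA (0.805% and 2.63% of 7573 intervals). In SPH 7 were higher and 26 lower (10.2% and 5.04%), and in METS 25 were higher and 19 lower (12.2% and 3.31%). Of the 12 members with H3K4me3 that were at least 1.5-fold higher in H3K27me3 in SPH, 8 had less H3K4me3 than DLD1, with a median log2 ratio of -0.33. The same held for 2 of 4 such members in SA and 5 of 9 in METS. Of the 41 of the 433 that were lower in H3K27me3 in SPH, 21 had more H3K4me3 than DLD1, with a median log2 ratio of 0.03. Over the 433 members Spearman's rank correlation between the ratios of H3K4me3 and H3K27me3 was -0.14 in SA, -0.05 in SPH and -0.20 in METS, too weak to be a finding. Between the ratios of H3K79me3 and H3K27me3, over the 209 members, it was stronger in SPH and METS. It was -0.15 in SA, -0.36 in SPH and -0.33 in METS, as a description over members that share libraries.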

How the data were processed

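The deposited values are counts of reads over regions, not normalized: each is a whole number, column sums differ between lines, and the 4 lines of a mark list the same regions. The authors aligned to hg19 per the submitters' processing notes, and the aligner, the peak caller and the counting program are not given in the sources used here. The H3K27me3 table was held in part, since 7773 rows are recorded as skipped at its end, and it covers chromosomes 1 to 19. Dropping 7 repeated rows left 49993 intervals, and 53 members overlap another member.

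Names came from RefSeq genes on GRCh38.p14, since no hg19 annotation was used. A member took a gene's name where the chromosome was the same, the widths differed by at most 10% and both ends were displaced between builds like those of the 5 nearest genes of equal width, within 50 kb. This named 609 members, 412 of them with widths within 0.1%. No coordinate was converted.

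H3K4me3 and H3K79me3 regions were assigned to a member by their midpoint. Ratios to DLD1 used counts over column totals (CPM), with 0.5 CPM added for counts of members past 1.5-fold. The mesenchymal and epithelial lines were compared with edgeR 4.0.16 (quasi-likelihood, library totals, all regions with a count, Benjamini-Hochberg adjustment over the whole table), with DESeq2 1.42.0 as an alternative in R 4.3.3. On simulated H3K27me3 counts the edgeR fit found 6, 31, 50 and 50 of 50 intervals changed 1.5-, 2-, 4- and 8-fold, among 48375 intervals and with 6 false calls. The counts were drawn with the spread that the fit itself had estimated, and intervals of any width were changed. The simulation therefore cannot show whether that spread suits the very long genes. Ranges used Python 3.11.15 and SciPy 1.17.1. Nothing in the labels says that any library is repeated, so p-values measure only the spread between lines, which may be technical.

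The members, the gene groups and the tests were chosen with earlier results of these data known. Named members are those of the width rule, the 5 highest and 5 lowest by mean density, the 5 highest and 5 lowest log2 ratios per derivative, the 5 smallest p-values each way, the 5 with most H3K79me3 regions per length and the 5 with most H3K4me3, where other names are said to be later choices or stand for a gene group or a call of 5 or fewer.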

Additional observations from a re-analysis of the deposited data

Results flagged for a closer look

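In 3 very long genes H3K27me3 was at least 1.5-fold above DLD1 in both mesenchymal lines and at least 1.5-fold below it in METS, so that derivatives of one parent stood on opposite sides of it. GPC6 was 2.29-fold of DLD1 in SA and 3.58-fold in SPH, and 0.578-fold in METS. GPC5 was 2.01-fold in SA and 2.55-fold in SPH, and 0.452-fold in METS. FOXP1 was 1.67-fold in SA and 2.0-fold in SPH, and 0.608-fold in METS. The difference between METS and the mesenchymal lines was not tested by itself, since each has 1 library. All 3 ratios share the DLD1 library, and copy number was not tested.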

How the results depend on the processing

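The percentage of members past 1.5-fold of DLD1 in either direction kept within 1.5 times its value (10.3%, 17.7% and 11.1% for SA, SPH and METS) under TMM factors, DESeq2 size factors, 0.1 or 2 CPM added, members of 500 kb or more or of 200 kb or more, members thinned to no overlap, and totals over non-overlapping intervals. A 2-fold threshold gave 1.13%, 3.51% and 2.49%. The median density of members, 0.534 CPM per kb as the mean of the 4 lines, became 0.600 for members of 500 kb or more and 0.613 with non-overlapping totals. The share of members with an H3K4me3 or H3K79me3 region moved little. Of the H3K27me3 calls between states, 31 in all, DESeq2's Wald test kept a count of 16 and the filter at the median 0, and leaving out a line gave 18 to 83. For H3K4me3 regions, 8 in all, TMM factors gave 1, DESeq2 size factors 1, the Wald test 2, the filter 0 (88 at an unadjusted p under 0.05), and leaving out a line 4 to 219. For H3K79me3 regions, 0 in all, leaving out a line gave 0 to 52. A state left with 1 line was assumed to vary like the other. The cause of these differences was not tested. For single named members, the values were ratios to DLD1, judged by 1.5-fold, and edgeR or DESeq2 fits between the states, judged by an adjusted p of 0.05. Of these values, 508 kept their side of the threshold that applied and 30 lost it. The 30 include both ratios that fell within 1.5-fold and calls that were lost, so they are not a count of ratios alone. The sign changed in 30 values, all under TMM or DESeq2 size factors and none past 1.5-fold, where the log2 ratio with library totals was at most 0.13 in size. No paired analysis was possible because each line and mark has 1 library. Each member had 603 counts or more in every line, and no library is repeated.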

Other observations

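Members called by edgeR beyond those described above were spread over several kinds of genes. FSTL5, coding for a secreted follistatin-like protein, had 0.478 CPM per kb in SA and 0.578 in SPH, against 0.202 in METS and 0.362 in DLD1 (edgeR, adjusted p = 0.00402). ST6GALNAC3, a sialyltransferase gene, had 1.31 and 2.0 CPM per kb in the mesenchymal lines, against 0.868 and 0.987 in METS and DLD1 (edgeR, adjusted p = 0.00211). DCLK1, a doublecortin-like kinase gene, had 1.04 and 1.51 CPM per kb, against 0.878 and 0.679 (edgeR, adjusted p = 0.0268). In all 3 genes both mesenchymal lines lay above both epithelial lines. These calls were not stable: the edgeR adjusted p was 0.180 for FSTL5 without METS, 0.442 for ST6GALNAC3 without SPH, and for DCLK1 0.681 without SPH and 0.224 without DLD1.

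Among those that fell, NCALD, a neuronal calcium sensor gene, had 0.469 and 0.481 CPM per kb in SA and SPH, against 0.804 and 0.795 in METS and DLD1, and its 3 H3K4me3 regions summed to 10.2 and 3.91 CPM, against 22.5 and 25.7 CPM. GALNT18, a glycosyltransferase gene, had 0.523 and 0.493 CPM per kb, against 0.967 and 0.722. Both calls were lost with TMM factors, where the edgeR adjusted p was 0.0601 for NCALD and 0.0994 for GALNT18, and DESeq2's Wald test called neither. Without SPH the edgeR adjusted p was 0.0572 for NCALD and 0.147 for GALNT18, and without METS it was 0.318 for GALNT18. NCALD thus had less of both marks in the mesenchymal lines.

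By chromosome, the 19 members on chromosome 16 had the highest medians among chromosomes with more than 2 members, at 1.10 CPM per kb in SA, 1.25 in SPH, 1.32 in METS and 0.969 in DLD1. The 24 members on chromosome 17 had 0.313, 0.362, 0.364 and 0.350 CPM per kb, the lowest in SA, SPH and DLD1, while in METS the 53 members on chromosome 6 were lower at 0.358.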
